A study of Mus musculus with 6 samples.

Results

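The nuclear genes of cytochrome c oxidase, of respiratory complex III and of the electron carrier between them were followed in a mouse ovarian cancer cell line with and without MNRR1, the protein encoded by Chchd2. The set was chosen by gene name and function and holds 42 genes, all of them found among the 49315 genes of the count table. It comprises 15 subunits of cytochrome c oxidase (complex IV), 17 factors that assemble complex IV or help to express its mitochondrially encoded subunits, 1 gene of cytochrome c (Cycs) and 9 subunits of complex III. RNA sequencing gave 3 libraries of MNRR1 KO cells and 3 libraries of WT cells, and the study compared these groups to learn how the transcriptome differs once MNRR1 is lost. KO cells are the TKO (triple knockout) line with MNRR1 also disrupted, and their sample descriptions name 1 clone, so a property of that clone and the loss of MNRR1 cannot be told apart. WT cells are the TKO line with MNRR1 intact. Both groups therefore carry the alterations behind the name TKO, and the labels do not say which genes those are. Tissue is given as ovary and disease as ovarian cancer. The labels are silent on whether replicates of a group came from different cultures; p-values therefore describe the spread among these 6 libraries, and part or all of that spread may be technical.

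Complex III takes electrons from ubiquinol and hands them to cytochrome c, and complex IV passes them from cytochrome c to oxygen, while both help to build the proton gradient that drives ATP synthesis. The catalytic core of complex IV and cytochrome b of complex III are encoded by mitochondrial DNA, whereas the surrounding subunits and the assembly factors, which supply heme A and copper and stabilise the core proteins, are nuclear genes. MNRR1 is known to bind complex IV in the mitochondrial intermembrane space and, in human cells, to act in the nucleus on the promoter of the subunit gene COX4I2 together with RBPJ and CXXC5.

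Total counts ran from 33226463 to 40983999 per library, and a count of 0 allows up to 3 counts, or 0.0737 to 0.0886 CPM (a count over its library's total, after edgeR's TMM scaling) in a single library; such floors cover counting error only. Chchd2 was at 16.6, 17.6 and 17.0 CPM in KO libraries, against 367, 349 and 340.2 CPM in WT libraries, so the targeted gene and the labels went together. Of 10 ovarian and Müllerian epithelial markers, 8 could be tested, with 2 higher and 4 lower in KO. Krt7 and Msln were lower (81.3 ± 11.5 CPM in KO, against 299 ± 25.9 CPM in WT libraries, and 108 ± 7.33 CPM in KO, against 281 ± 11.7 CPM in WT libraries), as were Krt8 and Krt18. Krt19 and Muc16 were higher (481 ± 41.3 CPM in KO, against 354 ± 20.6 CPM in WT libraries, and 414 ± 76.4 CPM in KO, against 301 ± 18.6 CPM in WT libraries; values are means ± SD of 3 libraries). The mesothelial and ovarian surface marker Wt1 was high in both groups (677, 669 and 686 CPM in KO, against 703, 696 and 759 CPM in WT libraries), whereas Pax8, a marker of the Müllerian duct, was at 0 to 0.0491 CPM in KO, against 0.118 to 0.543 CPM in WT libraries, and Emx2 was at 0 in all libraries but WT replicate 1. Summed levels of 5 leukocyte markers were 2.97 to 3.43 CPM in KO, against 4.51 to 10.6 CPM in WT libraries, with Cd3e at 0 throughout and both tested members (Cd68 and Lyz2) lower in KO. Lyz2 had only 1, 13 and 6 counts in KO libraries, against 61, 146 and 10 in WT libraries, and its groups overlapped. Summed levels of 3 endothelial markers were 1.495 to 1.597 CPM in KO, against 5.44 to 5.93 CPM in WT libraries, with 1 of 2 tested members (Kdr) lower. Summed levels of 6 stromal fibroblast markers were 461 to 501 CPM in KO, against 617 to 657 CPM in WT libraries, with 1 of 4 tested members higher (Pdgfrb) and 1 lower (Col1a1). These counts of markers are to be read beside all tested genes, of which 27.8% were called higher and 27.8% lower in KO. The part that any of these marker shifts has in the results on respiratory genes was not tested. In a bulk library, fewer cells of a type and less RNA per cell cannot be told apart.

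Of the 42 genes, 40 passed the filter on low counts, and 12 of these were lower in KO, while 0 were higher and 28 did not pass the test. The test was edgeR's quasi-likelihood test over all 16033 genes that passed the filter, with Benjamini-Hochberg (BH) adjustment over all of them and a threshold of 0.05. The genes called lower were Cox5a, Cox6a1, Cox7a2 and Cox7c among 13 tested subunits of complex IV, Cox17, Cox18, Coa5 and Lrpprc among 17 assembly and expression factors, Cycs, and Cyc1, Uqcrfs1 and Uqcrb among 9 subunits of complex III. The largest shortfalls were those of the copper chaperone gene Cox17, of Cycs and of the Rieske protein gene Uqcrfs1, which stood at 60.7%, 61.7% and 68.2% of their WT means. Called members made up 30.0% of those tested, and 30.0% were called lower. Across all tested genes 55.7% were called, 27.8% higher and 27.8% lower in KO. The share of members called lower is thus close to the share of all genes called lower. Against 27.8% of all genes, 0 of 40 members were called higher, also by DESeq2 and by limma voom, while 1 of them (Cox19) was higher at an unadjusted p under 0.05. That count was 7 with libraries scaled by their totals, 3 with upper quartile scaling and 2 without KO replicate 2. It was 1 with no filter and 1 with a filter of 1 CPM. Of the 28 uncalled members, 24 had a 95% interval of the difference within 0.5 on the log2 scale on either side of 0.

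These differences were small. The median fitted log2 fold change (KO over WT) of the 40 tested members was -0.07, beside 0.01 for all tested genes, and the median of the absolute log2 fold changes was 0.15 for the members and 0.35 for all tested genes. In 34 of 40 members the absolute log2 fold change was under that median of all genes. Of the 40 members, 23 were at 50 CPM or more in WT libraries. All tested genes include many of low level, and no comparison with them in this paragraph was matched for level. Only Cox17 and Cycs were called with a change of at least 1.5-fold, which is 5% of the tested members, against 26.6% of all tested genes. KO and WT libraries did not overlap for 15 of the 40 members (37.5%), against 64% of all tested genes. The 12 members with every KO library below every WT library were the 12 called ones, and the 3 with every KO library above (Cox6a2, Cox15 and Cox19) were not called.

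Calls of such small differences depend on the scaling, which moves all genes together. With libraries scaled by their totals the median of all genes was 0.13 and that of the members 0.05, a difference (members minus all genes) of -0.0762, where it was -0.0757 as reported and -0.0758 with upper quartile scaling. The calls with library totals were 5 lower (Cox7c, Cox17, Cycs, Uqcrfs1 and Uqcrb) and 7 higher (Cox4i1, Cox7a1, Cox15, Cox16, Cox19, Uqcrc1 and Uqcrc2). Upper quartile scaling gave 8 lower and 3 higher. Those 5 lower genes were called lower in all 16 other ways of running the test, and the other 7 calls were not. On GRCm38 the annotation places Cox17 (ENSMUSG00000046516) on chromosome 16 from 38346991 to 38352763 on the plus strand. On the minus strand it places Cycs (ENSMUSG00000063694) on chromosome 6 from 50562563 to 50566538, Uqcrfs1 (ENSMUSG00000038462) on chromosome 13 from 30540308 to 30545362, Uqcrb (ENSMUSG00000021520) on chromosome 13 from 66900617 to 66905378 and Cox7c (ENSMUSG00000017778) on chromosome 13 from 86044816 to 86046904. The 42 members lie on 17 chromosomes. Uqcrfs1, Uqcrb and Cox7c are the only members on chromosome 13, so every member on that chromosome was called lower. Whether chromosome 13 differs between the KO clone and the WT cells was not tested. Without KO replicate 1 or without WT replicate 1 only 7 members were called lower. KO replicate 2 was the KO library with the highest level in 9 of the 12 called members and in 25 of the 40 tested, and without it 15 members were called lower and 2 higher.

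**Figure D1:**
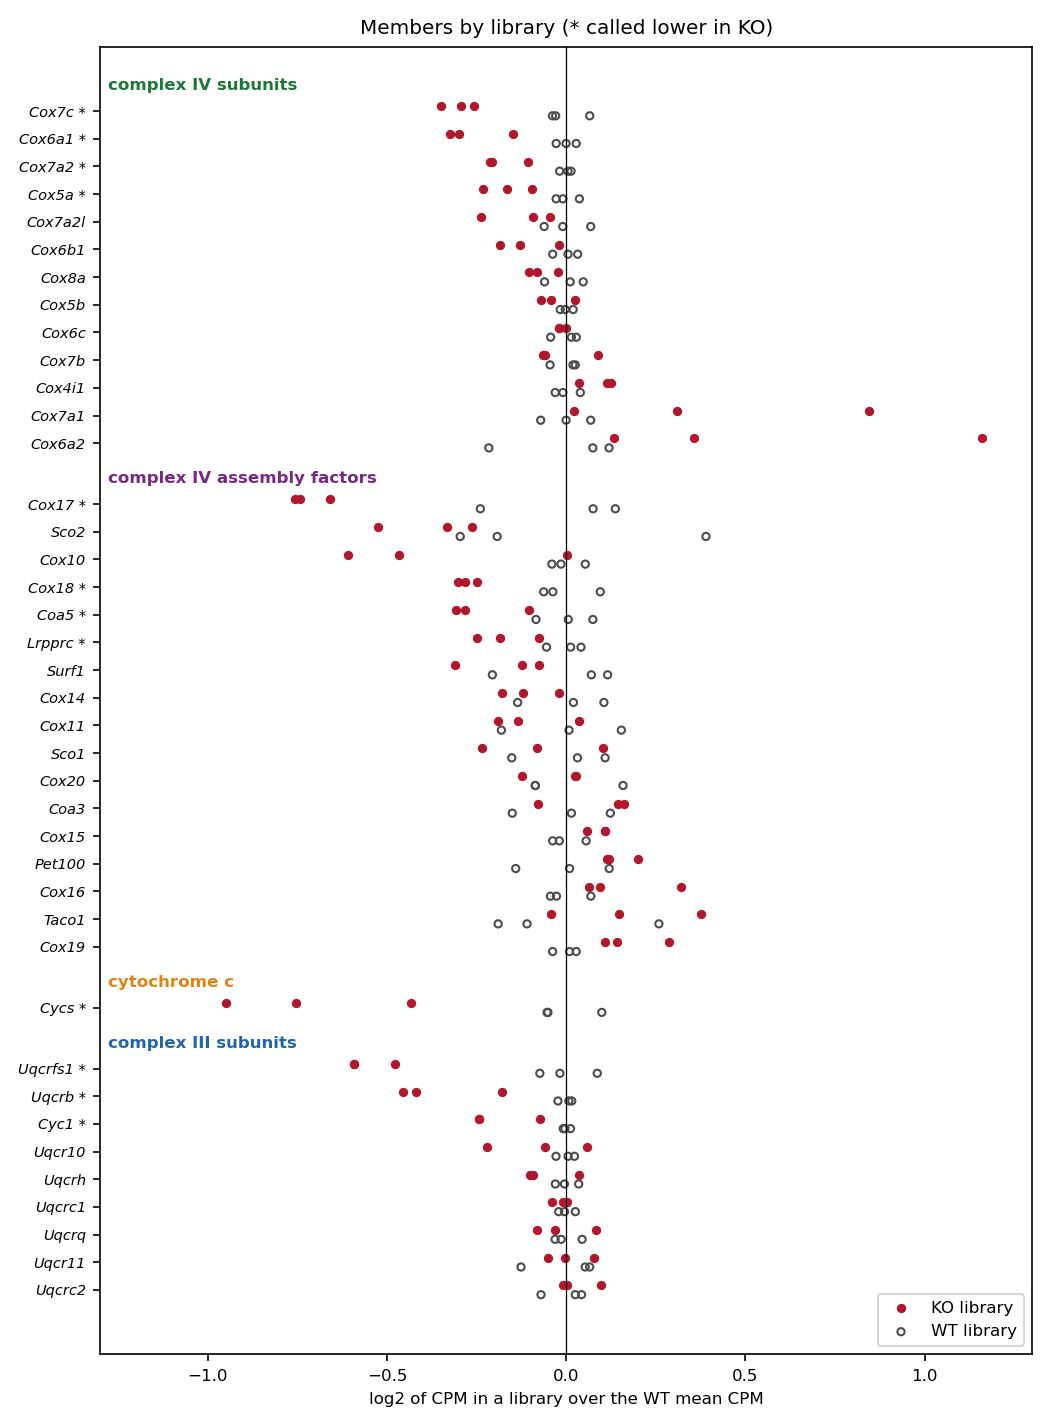
Level of each tested member in each library, as log2 of its CPM over the mean CPM of the WT libraries (horizontal axis), grouped by role. Filled points are the 3 KO libraries and open points the 3 WT libraries. Starred genes were called lower in KO, and in each of these 12 all filled points lie left of all open points.

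**Figure D2:**
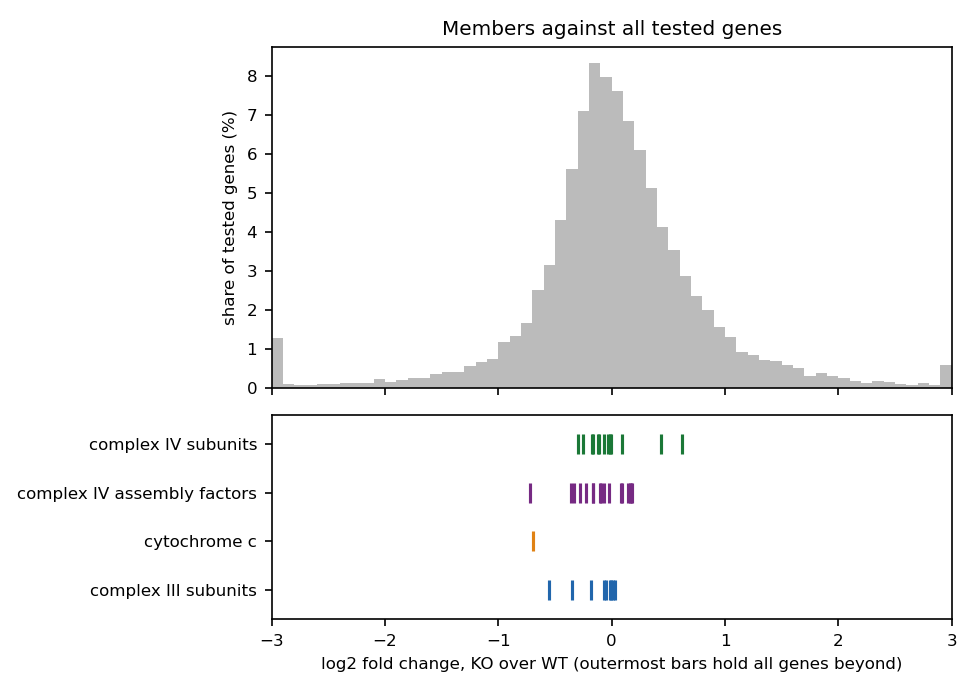
Share of all 16033 tested genes (vertical axis, percent) by fitted log2 fold change, KO over WT (upper panel), with each tested member drawn as a line below it by role. The members lie between -0.72 and 0.62, near the middle of the distribution of all genes.

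Promoter windows of 4 of the genes called lower are shown to describe their letters. The factors named here are known to act on respiratory genes, and whether they act on these 4 genes was not tested. They come from RefSeq (GRCm38.p6) and run from 250 bases before to 50 bases after the RefSeq start site, written 5′ to 3′ along the gene. Uqcrfs1, Cycs and Cox7c are 3 of the 5 genes called lower under every setting, and the others, Cox17 and Uqcrb, had no window. Cox6a1 was picked for its letters, as the called gene with a window that has the most motif matches, and its call was lost with library totals. Capitals mark matches on either strand to the letters GTGGGAA (RBPJ), CCGGAAG (ETS factors, among them GABP), GCATGCG (NRF1), AAGATGG (YY1) and GGGCGGG (SP1).
Cycs, chr6:50566520-50566819, minus strand: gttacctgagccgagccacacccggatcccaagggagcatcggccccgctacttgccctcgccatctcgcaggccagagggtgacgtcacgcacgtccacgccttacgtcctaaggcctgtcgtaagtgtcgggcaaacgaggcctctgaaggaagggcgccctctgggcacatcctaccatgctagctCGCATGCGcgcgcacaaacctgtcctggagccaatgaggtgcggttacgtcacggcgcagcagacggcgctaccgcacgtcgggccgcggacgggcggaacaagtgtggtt
Uqcrfs1, chr13:30545267-30545566, minus strand: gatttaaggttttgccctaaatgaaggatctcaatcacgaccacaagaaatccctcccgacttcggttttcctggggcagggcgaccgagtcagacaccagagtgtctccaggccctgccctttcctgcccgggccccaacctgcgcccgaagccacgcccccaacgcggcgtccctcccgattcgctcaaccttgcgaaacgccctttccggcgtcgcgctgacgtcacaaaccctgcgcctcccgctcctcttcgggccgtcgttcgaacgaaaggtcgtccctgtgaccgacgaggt
Cox7c, chr13:86046746-86047045, minus strand: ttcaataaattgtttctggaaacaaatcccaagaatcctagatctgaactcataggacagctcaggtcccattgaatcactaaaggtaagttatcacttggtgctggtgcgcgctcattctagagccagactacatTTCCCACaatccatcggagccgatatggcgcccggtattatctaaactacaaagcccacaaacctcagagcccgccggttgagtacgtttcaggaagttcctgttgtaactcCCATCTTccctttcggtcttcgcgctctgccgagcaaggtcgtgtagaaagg
Cox6a1, chr5:115348909-115349208, minus strand: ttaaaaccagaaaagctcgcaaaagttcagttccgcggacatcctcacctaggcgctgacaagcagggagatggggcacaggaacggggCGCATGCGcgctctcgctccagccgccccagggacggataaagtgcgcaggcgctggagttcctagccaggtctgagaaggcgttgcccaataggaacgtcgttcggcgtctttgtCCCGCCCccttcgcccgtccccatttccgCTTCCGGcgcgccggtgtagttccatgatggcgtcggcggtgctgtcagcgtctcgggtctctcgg

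In the Cycs window the letters for NRF1 matched on both strands, overlapping each other, from 61 bases before the start. In the Uqcrfs1 window none of the motif letters matched. The Cox7c window held the RBPJ letters on the strand opposite to the one printed, 114 bases before the start and the YY1 letters at the start itself. The Cox6a1 window held NRF1 letters on both strands, overlapping, from 161 bases before the start, and SP1 and ETS letters nearer to it. No window was found for Cox4i1, Cox4i2, Cox6a2, Cox6c, Cox17, Cox18, Cyc1, Uqcrc2, Uqcrb and Uqcrq. Their promoters, that of the reported MNRR1 target Cox4i2 included, were therefore not searched. A window was found for the other 32 of the 42 members. The ETS letters were in 13 of these (40.6%) and in 19.4% of the 10779 windows of tested genes, but of the members holding them 1 was among the 8 called genes with a window and 12 were among the 23 uncalled ones. NRF1 letters were in 4 member windows (12.5%, against 6.97% of those of tested genes), YY1 letters in 3 (9.38%, against 8.16%), SP1 letters in 9 (28.1%, against 50.3%) and RBPJ letters in 1 (3.12%, against 7.25%). Among the 8 called members with a window, NRF1 letters were in 2, and YY1, SP1 and RBPJ letters in 1 each. Among the 23 uncalled ones NRF1 letters were in 2, YY1 letters in 2, SP1 letters in 7 and RBPJ letters in 0. Such matches describe the letters in these windows and are not binding sites.

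The nuclear subunits of complex IV surround its mitochondrially encoded core. Their summed level was 1258 ± 25.6 CPM in KO, against 1317 ± 10.8 CPM in WT (SD, n = 3 each), which is 95.5% of WT. Cox7c, a small membrane subunit, had 71.1, 69.3 and 66.7 CPM in KO libraries, against 83.3, 88.9 and 82.8 CPM in WT libraries. Its groups were well apart, at a log2 fold change of -0.30 (SE 0.06, adjusted p = 0.000874, edgeR with BH). Cox7c has 3 near-identical pseudogene copies in the annotation, whose counts came to 3.15% of its own, so reads can be misassigned between them. Cox6a1, the common isoform of subunit 6A, had 117, 116 and 130.4 CPM in KO libraries, against 142, 147 and 144 CPM in WT libraries, so that KO replicate 3 lay nearest to WT, and the log2 fold change was -0.25 (SE 0.06, adjusted p = 0.00304, edgeR with BH). With scaling by library totals this call was lost (adjusted p = 0.0863, range over the settings 0.000228 to 0.0863).

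Cox7a2, the common isoform of subunit 7A, and Cox5a, a subunit on the matrix side, differed less. Cox7a2 had 68.9, 73.9 and 68.5 CPM in KO libraries, against 79.7, 80.2 and 78.5 CPM in WT libraries (log2 fold change -0.17, SE 0.05, adjusted p = 0.0170, edgeR with BH). Cox5a had 71.6, 75.2 and 68.3 CPM in KO libraries, against 82.3, 79.7 and 78.7 CPM in WT libraries (log2 fold change -0.16, SE 0.06, adjusted p = 0.0285). KO replicate 2 was in both the KO library nearest to WT. Both calls were lost with upper quartile scaling, with library totals and without KO replicate 1, WT replicate 1 or WT replicate 2, and that of Cox5a also without KO replicate 3. Adjusted p ran from 0.00111 to 0.369 for Cox7a2 and from 0.00235 to 0.501 for Cox5a over the settings.

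The other common subunits did not pass the test. Cox4i1, the common isoform of the subunit that binds regulatory nucleotides, had 293, 309.6 and 312 CPM in KO libraries, against 294, 279.9 and 284 CPM in WT libraries, and the groups overlapped (log2 fold change 0.09, 95% interval -0.02 to 0.20). It was called higher with upper quartile scaling (log2 fold change 0.14, adjusted p = 0.0265, edgeR with BH) and with library totals (0.21, adjusted p = 0.00194), in a range of 0.00194 to 0.383. Cox6b1, which faces the intermembrane space where cytochrome c docks, had 96.8, 104 and 93.1 CPM in KO libraries, against 108, 103 and 106 CPM in WT libraries. KO replicate 2 alone lay within the WT range, and without it Cox6b1 was called lower (adjusted p = 0.00735 in edgeR with BH, range over the settings 0.00735 to 0.881). The membrane subunits Cox6c and Cox7b and the zinc-binding Cox5b had log2 fold changes of -0.01, -0.01 and -0.03, with 95% intervals no wider than -0.14 to 0.12. Cox8a, a membrane subunit, was at -0.07 (-0.18 to 0.05). Cox7a2l, a relative of subunit 7A that joins complexes III and IV into supercomplexes, was at -0.12 (-0.27 to 0.03), with a processed pseudogene copy whose counts came to 16.7% of its own, so its count is uncertain.

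Subunits 4, 6A, 6B and 7A each have a common isoform and a tissue-restricted one, and the common isoform was the more abundant in every library. Levels per kilobase of exon are used here, since they can be set beside each other between genes; on that scale the restricted isoform reached at most 0.673% of the common one for subunits 4, 6A and 6B, and more for 7A. Cox7a1, the muscle isoform of subunit 7A, was at 11.5%, 8.80% and 16.8% of the level per kilobase of Cox7a2 in KO libraries, against 8.42%, 7.60% and 8.16% in WT libraries. Each KO library was above each WT library in that share. Cox7a1 itself had 4.49, 3.68 and 6.52 CPM in KO libraries, against 3.804, 3.454 and 3.627 CPM in WT libraries, which overlapped and did not pass the test (log2 fold change 0.43, SE 0.20, adjusted p = 0.0859, edgeR with BH). It was called higher with library totals (adjusted p = 0.0417), with no filter (0.0364) and without KO replicate 2 (0.00489), and its adjusted p ran from 0.00489 to 0.424.

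Cox6a2, the muscle isoform of subunit 6A, had 0.487, 0.418 and 0.851 CPM in KO libraries, against 0.400, 0.413 and 0.327 CPM in WT libraries, from 13 to 33 counts per library. The KO values lay above the WT values, by little in replicate 2, and the 95% interval of the log2 fold change was -0.19 to 1.44. Per kilobase it was at 0.373% to 0.673% of Cox6a1 in KO and 0.234% to 0.292% in WT libraries. Cox4i2, the isoform of subunit 4 known for its response to low oxygen and as a reported target of MNRR1, stayed below the filter, with 10, 7 and 7 counts in KO libraries, against 2, 4 and 13 in WT libraries. It was at 0.109% to 0.192% of Cox4i1 per kilobase in KO and 0.0383% to 0.227% in WT libraries, with the groups overlapping. Cox6b2, the testis isoform of subunit 6B, had 12, 3 and 3 counts in KO libraries, against 1, 2 and 7 in WT libraries. Differences at this depth were not detectable for Cox4i2 and Cox6b2. Of 6 striated muscle markers, 2 could be tested and both were lower in KO, as were 27.8% of all tested genes. Their summed levels were 25.5 to 34.1 CPM in KO, against 43.7 to 47.8 CPM in WT libraries. Nearly all of that was Des, and Ckm was at 0 in KO replicates 1 and 2. Of 4 male germ cell markers, 0 could be tested, and Tnp1 and Dazl were at 0 in all libraries.

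**Figure D3:**
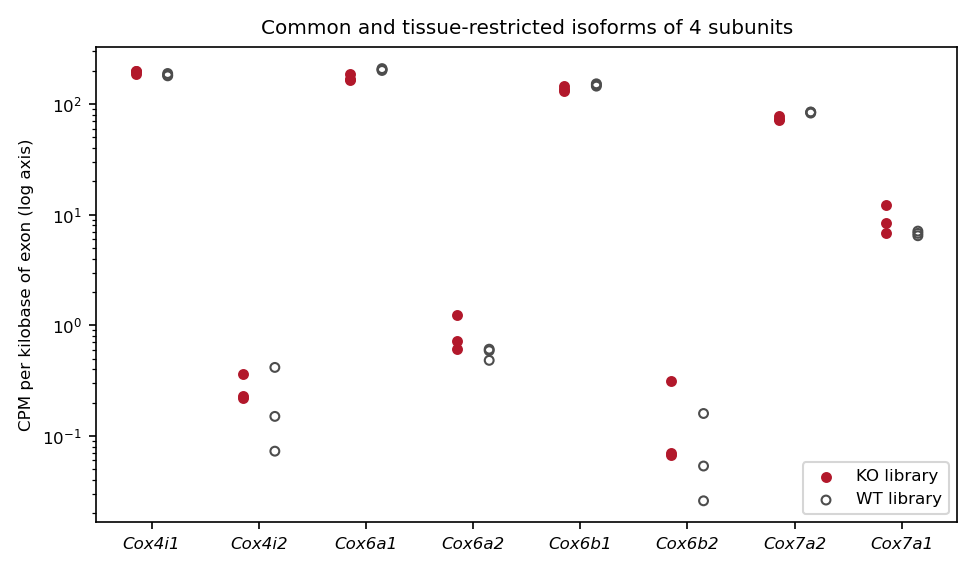
Level per kilobase of exon (vertical log axis, CPM per kilobase) of the common and the tissue-restricted isoform of 4 complex IV subunits in each library. Filled points are KO libraries and open points WT libraries, with KO left of WT for each gene. Each restricted isoform lies below its common partner in all libraries, Cox7a1 by the smallest distance.

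Assembly and expression factors of complex IV had a summed level of 663 ± 37.0 CPM in KO, against 728 ± 33.5 CPM in WT (SD, n = 3 each). Copper delivery was represented by Cox17, Sco1, Sco2, Cox11 and Cox19. Cox17, which hands copper to Sco1, Sco2 and Cox11 for the copper sites of complex IV, had 12.6, 13.5 and 12.8 CPM in KO libraries, against 23.5, 22.5 and 18.1 CPM in WT libraries. KO values were tightly grouped, and WT replicate 3 lay nearest to them. The log2 fold change was -0.72 (SE 0.10, adjusted p = 0.000175, edgeR with BH), the largest among the tested members, and it ran from -0.83 to -0.60 over the settings. Of the 5773 exon bases of Cox17, 257 are shared with the gene model Gm21987 on the same strand. That model had 2 counts over all libraries. Reads of the shared bases can be misassigned, so the count of Cox17 is uncertain as well. The copper proteins Sco1 and Cox11 had log2 fold changes of -0.06 (95% interval -0.29 to 0.16) and -0.09 (-0.31 to 0.13). Of the 1423 exon bases of Cox11, 688 lie opposite Tom1l1 exons, so the count of Cox11 is uncertain. Sco2 was at 9 to 17 counts per library, and most of its exon bases are shared with Tymp or Ncaph2, so its level is uncertain.

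Cox19, a protein of the intermembrane space that binds copper in yeast, was among the 3 members with every KO library above WT. It had 25.4, 22.5 and 23.0 CPM in KO libraries, against 20.3, 21.0 and 21.3 CPM in WT libraries, with no overlap but a missed threshold (log2 fold change 0.18, SE 0.07, adjusted p = 0.0614, edgeR with BH). It was called higher with upper quartile scaling (adjusted p = 0.0228), with library totals (0.00789), with a filter of 1 CPM (0.0472) and without KO replicate 2 (0.0210), in a range of 0.00789 to 0.244.

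Heme A synthesis rests on Cox10 and Cox15. Cox10, the enzyme that makes heme O, had 26.6, 36.8 and 24.1 CPM in KO libraries, against 38.1, 35.7 and 36.3 CPM in WT libraries. KO replicates 1 and 3 lay well below WT while KO replicate 2 lay within it, and the log2 fold change was -0.33 (SE 0.14, adjusted p = 0.0648, edgeR with BH). Without KO replicate 2 it was -0.54 and called lower, at an adjusted p of 2.23e-06, and it was also called by DESeq2, by limma voom and with no filter (range over the settings 2.23e-06 to 0.194). Cox15, which turns heme O into heme A, had 86.3, 89.2 and 89.3 CPM in KO libraries, against 86.1, 80.7 and 81.7 CPM in WT libraries, without overlap but only just (log2 fold change 0.09, SE 0.05, adjusted p = 0.156). Its call became higher with upper quartile scaling and library totals. Surf1, which acts at heme insertion into the core, had 21.3, 18.7 and 21.97 CPM in KO libraries, against 24.3, 25.1 and 20.1 CPM in WT libraries, and these overlapped (95% interval -0.39 to 0.05); without WT replicate 3 it was called lower (adjusted p = 0.0430, edgeR with BH, range 0.0430 to 0.747).

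Cox18, Cox20 and Cox16 help the mitochondrially encoded subunit MT-CO2 to fold, cross the membrane and take up copper. Cox18, the membrane insertase among them, had 22.2, 21.8 and 22.7 CPM in KO libraries, against 26.3, 28.8 and 25.8 CPM in WT libraries. These groups were clearly apart, with a log2 fold change of -0.28 (SE 0.07, adjusted p = 0.00636, edgeR with BH), and the call was lost with library totals (adjusted p = 0.0905, range 0.00336 to 0.0905). Cox16 had 11.9, 14.3 and 12.2 CPM in KO libraries, against 11.2, 11.98 and 11.1 CPM in WT libraries, with overlap (95% interval -0.06 to 0.39). Of the 3751 exon bases of Cox16, 2130 are shared with the gene model Gm20498 on the same strand, and most of those of Cox20 (804 of 883) lie opposite Hnrnpu exons, so the counts of both are uncertain. Cox20 had a log2 fold change of -0.02 (-0.32 to 0.27).

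The remaining factors act on MT-CO1 or on the complex as a whole. Coa5, an intermembrane space protein needed early in assembly, had 137, 155 and 135 CPM in KO libraries, against 176, 167 and 157 CPM in WT libraries. Highest KO and lowest WT library nearly met, and the log2 fold change was -0.23 (SE 0.07, adjusted p = 0.0125, edgeR with BH). Lrpprc, which stabilises mitochondrial messenger RNAs, had 205, 221 and 196 CPM in KO libraries, against 239.8, 235 and 224 CPM in WT libraries, again nearly meeting, with a log2 fold change of -0.17 (SE 0.06, adjusted p = 0.0271). The Coa5 call was lost with library totals and without KO replicate 1 or WT replicate 1 (adjusted p 3.48e-05 to 0.123 over the settings). That of Lrpprc was lost with upper quartile scaling, with library totals and without KO replicate 1, KO replicate 3, WT replicate 1 or WT replicate 2 (0.000296 to 0.410). Cox14 and Coa3, which hold newly made MT-CO1, the assembly factor Pet100 and Taco1, an activator of MT-CO1 translation, had log2 fold changes of -0.10, 0.08, 0.15 and 0.17 and did not pass the test. Of the 1788 exon bases of Pet100, 941 lie opposite exons of Pcp2, which had 9 counts over all libraries, so the count of Pet100 is uncertain.

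Cycs, the soluble carrier between complexes III and IV that also triggers apoptosis when released from mitochondria, had 166, 207 and 145 CPM in KO libraries, against 299, 269.7 and 269 CPM in WT libraries. All KO libraries were well below all WT libraries, but they differed among themselves more than the WT libraries did, KO replicate 2 being the highest. The mean was 172 ± 31.6 CPM in KO, against 279 ± 17.2 CPM in WT (SD, n = 3 each), at a log2 fold change of -0.70 (SE 0.12, adjusted p = 0.000852, edgeR with BH). Over the settings the change ran from -0.85 to -0.58. Cycs has 4 near-identical copies in the annotation, 3 of them pseudogenes, whose counts came to 0.375% of its own.

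Complex III subunits had a summed level of 1053 ± 50.4 CPM in KO, against 1141 ± 12.9 CPM in WT (SD, n = 3 each). Uqcrfs1, the Rieske iron-sulfur protein and a catalytic subunit, had 77.8, 84.2 and 77.9 CPM in KO libraries, against 125, 116 and 111 CPM in WT libraries. The gap between groups was far wider than the spread within either, and the log2 fold change was -0.55 (SE 0.06, adjusted p = 2.51e-05, edgeR with BH), from -0.59 to -0.43 over the settings. Cyc1, cytochrome c1, the other nuclear-encoded catalytic subunit, had 218, 245 and 218 CPM in KO libraries, against 260.5, 257 and 258 CPM in WT libraries. WT libraries were nearly equal and KO replicate 2 lay close to them; the log2 fold change was -0.18 (SE 0.06, adjusted p = 0.0168). This call was lost with upper quartile scaling, with library totals and without KO replicate 1, WT replicate 1 or WT replicate 2, in a range of 3.95e-05 to 0.263.

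Uqcrb, a small subunit that contacts cytochrome b, had 47.7, 57.8 and 48.9 CPM in KO libraries, against 65.8, 64.4 and 66.1 CPM in WT libraries. KO replicate 2 was again nearest to WT, without overlap, and the log2 fold change was -0.35 (SE 0.07, adjusted p = 0.00217, edgeR with BH). The core proteins, which make up most of the mass on the matrix side, did not pass the test. Uqcrc1 had 191, 197 and 195 CPM in KO libraries, against 199.8, 193 and 196 CPM in WT libraries (95% interval of the log2 fold change -0.12 to 0.09). Uqcrc2 had 194, 208 and 193 CPM in KO libraries, against 199.9, 185 and 197 CPM in WT libraries (-0.09 to 0.15). Both overlapped between groups, and with library totals both were called higher (adjusted p = 0.0498 and 0.0181, edgeR with BH; ranges 0.0498 to 0.988 and 0.0181 to 0.942).

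Among the other small subunits, Uqcr10 had 72.7, 78.9 and 65.0 CPM in KO libraries, against 74.3, 76.0 and 77.0 CPM in WT libraries. KO replicate 2 was above WT and the other KO libraries below it, and without that replicate Uqcr10 was called lower (adjusted p = 0.0376, edgeR with BH, range 0.0376 to 0.994). Uqcrq, which contacts cytochrome b, Uqcrh, the hinge protein at the cytochrome c1 site, and Uqcr11 had log2 fold changes of -0.01, -0.05 and 0.01, with 95% intervals no wider than -0.17 to 0.16. In complex III, 6 of 9 subunits did not pass the test.

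**Figure D4:**
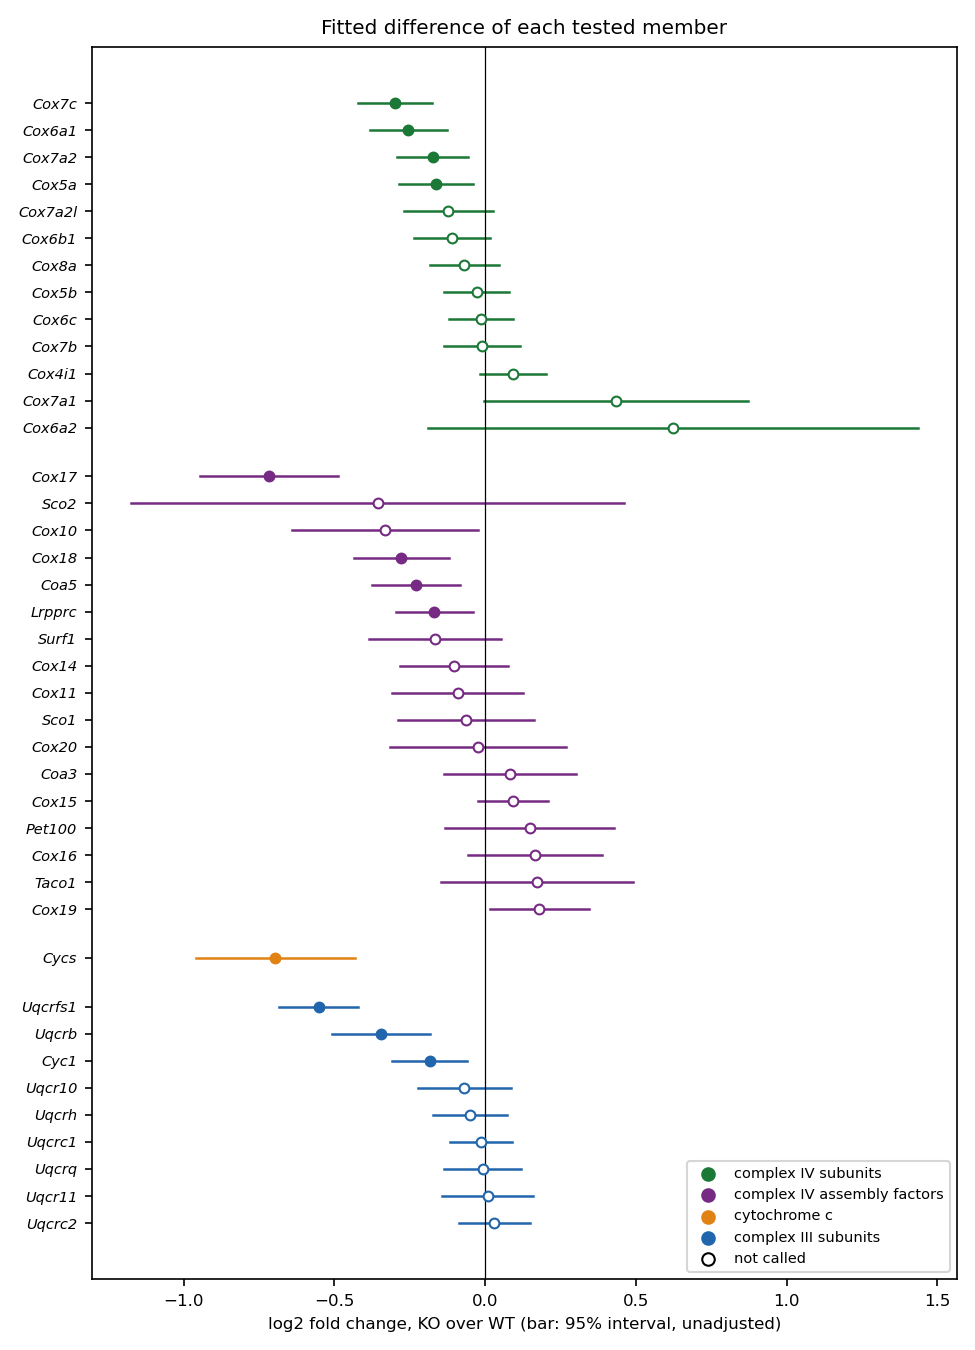
Fitted log2 fold change, KO over WT (horizontal axis), of the 40 tested members by role, with unadjusted 95% intervals as bars. Filled points passed the test and open points did not. Cox17, Cycs and Uqcrfs1 stand furthest left, at -0.72, -0.70 and -0.55.

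Ordered by level per kilobase of exon, the most abundant members in WT libraries were Cox8a, Cox6a1 and Cox4i1, at 197, 173 and 197 CPM per kilobase in KO and 207, 206 and 184 CPM per kilobase in WT libraries. Assembly factors were lower, from 33.8 (Cox14) to 0.229 (Sco2) in KO and from 36.4 to 0.296 in WT libraries. Uqcrfs1 stood 15th among the members in KO and 8th in WT libraries, and Cycs 16th in KO and 10th in WT libraries. Lengths are those of all annotated exons together, which lowers the value of genes with long rarely used exons. Cox17, with 5773 annotated exon bases, is such a long model at 2.25 CPM per kilobase in KO and 3.70 CPM per kilobase in WT libraries.

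The mitochondrially encoded partners were mostly lower as well. Of 4 such genes, 3 were called lower and 0 higher, beside 27.8% of all tested genes called in each direction. mt-Co1, the catalytic subunit of complex IV, had 7286, 7758 and 7675 CPM in KO libraries, against 8389.7, 8976 and 8681 CPM in WT libraries (log2 fold change -0.20, adjusted p = 0.0140, edgeR with BH). mt-Cytb, cytochrome b of complex III, had 2996, 3199 and 3164 CPM in KO libraries, against 3619.6, 3924 and 3990.3 CPM in WT libraries (log2 fold change -0.30, adjusted p = 0.00143). Groups were apart for both genes. The mt-Co1 call was lost with library totals and without KO replicate 1 or WT replicate 2 (range 0.000646 to 0.192). mt-Co3 was counted at only 6.99 to 9.80 CPM in KO, against 10.3 to 18.6 CPM in WT libraries (log2 fold change -0.72, adjusted p = 0.0152; lost without KO replicate 2 or KO replicate 3, range 5.95e-09 to 0.0789), and mt-Co2 at 1.52 to 2.60 CPM in KO, against 1.83 to 2.47 CPM in WT libraries, with no call. These low counts beside mt-Co1 leave the levels of mt-Co2 and mt-Co3 uncertain.

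Further genes of the same pathways were called in both directions, and their counts are likewise to be read beside 55.7% of all tested genes called. Of 15 tested among 20 other genes of complex IV, 2 were higher and 4 lower. The lower ones included Higd1a, a protein that binds complex IV (41.5 ± 7.20 CPM in KO, against 57.5 ± 2.87 CPM in WT libraries, log2 fold change -0.47), Smim20, which holds assembly intermediates of MT-CO1 (-0.36), and Coa7, an assembly factor (-0.30, adjusted p = 0.0300, edgeR with BH; lost in 6 of 16 settings, up to 0.145). Timm21, which links protein import to complex IV assembly, was higher (38.9 ± 0.947 CPM in KO, against 29.5 ± 1.63 CPM in WT libraries, log2 fold change 0.40; SD, n = 3 each). Of 7 tested among 8 other genes of complex III and cytochrome c, 1 was higher and 2 lower. Hccs, the enzyme that attaches heme to cytochrome c and cytochrome c1, had 68.8, 85.9 and 64.5 CPM in KO libraries, against 111, 106 and 99.3 CPM in WT libraries, with a log2 fold change of -0.53 (SE 0.10, adjusted p = 0.00102). All its KO libraries lay below WT, and KO replicate 2 was the highest of them, as for 25 of the 40 tested members, Cycs among them. Uqcc1, which acts in the synthesis of cytochrome b, was at -0.43, and Uqcc3, its partner in the same step, at 0.46 (adjusted p = 0.0172; lost without KO replicate 1, WT replicate 1 or WT replicate 3, up to 0.0766).

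Transcriptional regulators of respiratory genes included 12 tested genes, of which 2 were higher and 6 lower, so 66.7% were called, against 55.7% of all tested genes. Pprc1, a coactivator of the PGC family, had 143, 168 and 134 CPM in KO libraries, against 279, 282 and 279 CPM in WT libraries (log2 fold change -0.91, SE 0.08, adjusted p = 4.52e-06, edgeR with BH). Ppargc1a, the founding member of that family, was called higher in KO (adjusted p = 0.000264) at very low counts of 24, 12 and 18 in KO libraries, against 0, 0 and 1 in WT libraries. Ppargc1b, of the same family, had more counts, 482, 637 and 616 in KO libraries, against 647, 677 and 778 in WT libraries. It was called lower (log2 fold change -0.36, adjusted p = 0.00419, edgeR with BH), as was Esrra (-0.35, adjusted p = 0.00268). Gabpb1, the beta subunit of GABP, was at -0.46 (SE 0.07, adjusted p = 0.000307). Nrf1 was at -0.32 (SE 0.06, adjusted p = 0.00132). Gabpa, the DNA-binding subunit of GABP, was at 0.07 (adjusted p = 0.312, called higher with library totals, 0.00705). Ppargc1a, Ppargc1b, Esrra, Nrf1 and Gabpa were chosen for mention after their values were seen. Groups did not overlap for Pprc1, Gabpb1 and Nrf1, whereas those of Gabpa did. Of the reported nuclear partners of MNRR1, Rbpj was at -0.56 (adjusted p = 1.03e-05) and Cxxc5 at 0.51 (adjusted p = 0.000734), and its closest relative Chchd10 was at 0.20 (adjusted p = 0.0216; lost without KO replicate 3 or any WT library, 0.00228 to 0.0789). How these levels relate to those of the respiratory genes was not tested.

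**Figure D5:**
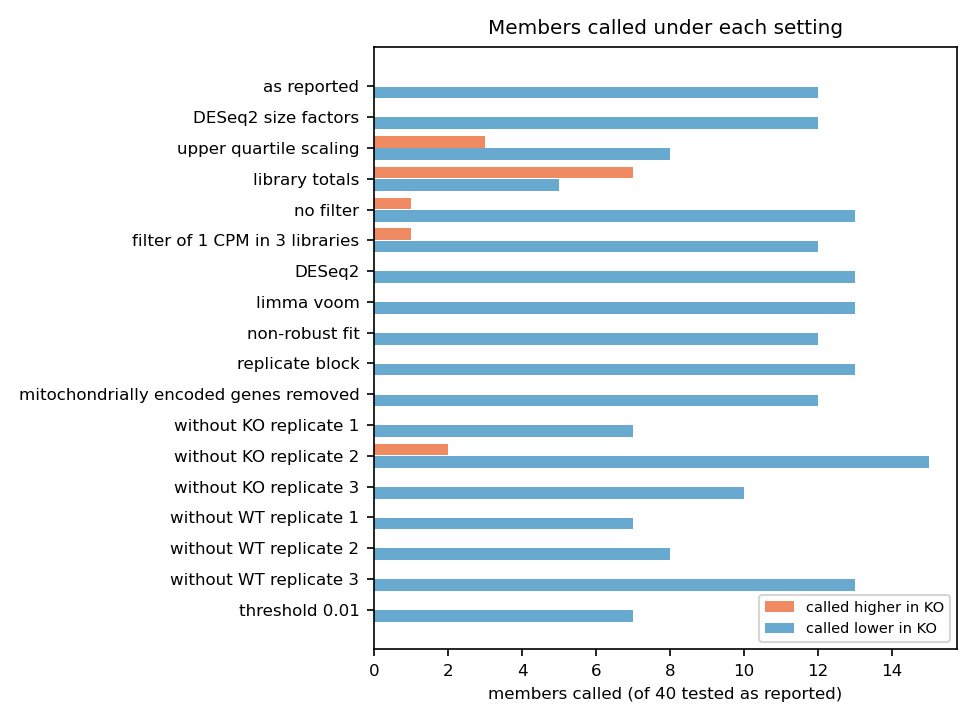
Number of members called higher and lower in KO (horizontal axis) as reported and under each alternative setting (vertical axis). Calls lower in KO range from 5 with library totals to 15 without KO replicate 2, and calls higher from 0 to 7 with library totals.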

How the data were processed

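RNA from 3 KO and 3 WT samples was sequenced. Libraries came from total RNA extracted on Qiagen columns and made with a NEBNext Ultra II kit, per the labels' protocols. The deposited values are raw read counts per Ensembl gene, made by the authors and not normalized. The submitters' processing notes name GRCm38 as the build and, with no roles, STAR 2.5.2b, Subread 1.5.2, Trimmomatic 0.36, bcl2fastq 2.17 and DESeq2. The annotation release, strand setting and treatment of multiply mapped reads are not given in these sources, so reads of overlapping genes and near-identical copies can be misassigned.

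Symbols, positions and exon lengths came from GENCODE M21 (GRCm38), which matched 49056 of 49315 gene IDs, all 42 members included. Counts were fitted with edgeR 4.0.16 in R 4.3.3: filterByExpr with a minimum count of 10 (16033 genes), TMM scaling, a robust quasi-likelihood model with genotype as its only term over the 6 libraries, and BH adjustment over all tested genes at 0.05. The script was tested on simulated data. Levels are TMM-scaled CPM, and copies are transcripts aligned by blastn 2.17.0 at 95% identity or more over at least 150 bases. Alternatives were DESeq2 size factors, upper quartiles, library totals, no filter, 1 CPM in 3 libraries, DESeq2 1.42.0, limma voom (limma 3.58.1), a non-robust fit, the replicate block, a threshold of 0.01, removal of mitochondrial genes and omission of each library. The members and lists were chosen with earlier results of these data known. The text names all 42 members, Chchd2, Chchd10, Rbpj, Cxxc5, the 4 mitochondrially encoded genes and, from each related list, up to 4 of the most changed called genes that reach 1 CPM. Nrf1, Gabpa, Ppargc1a, Ppargc1b, Esrra and the cell type markers mentioned were named outside this rule, after their values were seen.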

Additional observations from a re-analysis of the deposited data

How the results depend on the processing

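The 5 calls of Cox7c, Cox17, Cycs, Uqcrfs1 and Uqcrb held under all 16 alternative fits, and the other 7 of the 12 did not. Counts of members called (12 lower and 0 higher as reported) became 5 lower and 7 higher with library totals, 8 lower and 3 higher with upper quartile scaling, 7 lower at a threshold of 0.01, and 1 higher with no filter and 1 with the filter of 1 CPM. Leaving out single libraries gave 7 to 15 lower and 0 to 2 higher. For complex IV subunits (4 lower, 0 higher) the counts were 1 lower and 2 higher with library totals, 2 and 1 with upper quartiles, 2 lower at 0.01, 1 higher with no filter, and 2 to 5 lower and 0 to 1 higher without single libraries. For assembly factors (4 lower, 0 higher) they were 1 lower and 3 higher with library totals, 2 higher with upper quartiles, 2 lower at 0.01, 1 higher with the 1 CPM filter, and 2 to 5 lower and 0 to 1 higher without single libraries. For complex III, 2 were higher with library totals. Median log2 fold changes with library totals were 0.051 for all members, 0.052 for complex IV subunits, 0.028 for assembly factors and 0.069 for complex III. With upper quartiles the medians were -0.018, -0.0172, -0.0398 and 0.000574 for the same groups. The medians of all these groups thus turned sign with library totals, and that of complex III also with upper quartiles. Members' median minus that of all genes was -0.0757 with TMM, -0.0758 with upper quartiles and -0.0762 with library totals. Without single libraries the median log2 fold changes themselves ran from -0.12 to -0.051 (all members), -0.0963 to -0.0484 (complex IV subunits) and -0.17 to -0.011 (assembly factors). Some uncalled changes near 0 turned sign. With library totals these were Cox5b 0.092, Cox6b1 0.010, Cox6c 0.11, Cox7b 0.11, Cox8a 0.052, Cox11 0.028, Cox14 0.017, Cox20 0.099, Sco1 0.056, Uqcrc1 0.11 (called higher), Uqcrq 0.11, Uqcrh 0.069, Uqcr10 0.049 and mt-Co2 0.023. With upper quartiles they were Cox5b 0.023, Cox6c 0.038, Cox7b 0.042, Cox20 0.029, Uqcrc1 0.037, Uqcrq 0.043 and Uqcrh 0.000574. With no filter Uqcr11 was at -3.87e-05. Without single libraries the log2 fold change ran from -0.062 to 0.018 (Cox7b), -0.070 to 0.060 (Cox20), -0.16 to 0.016 (Sco1), -0.0069 to 0.050 (Uqcrc2), -0.058 to 0.028 (Uqcrq), -0.14 to 0.000798 (Uqcr10), -0.053 to 0.040 (Uqcr11) and -0.28 to 0.085 (mt-Co2). The cause of these shifts was not tested, other than that each scaling moves all genes together. With the replicate number as a block 13 members were lower and 0 higher, Cox10 being added (adjusted p = 0.0164, edgeR with BH); same-numbered libraries did not deviate together (correlations -0.059, 0.0513 and 0.0283), so the numbers are not taken as pairs. Low counts limit Cox4i2, Cox6b2, Cox6a2 and Sco2.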
